A study of Mus musculus with 8 samples.

Results

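The BCL2 family decides whether a cell opens its outer mitochondrial membrane and dies, and 10 of its genes were examined here in mouse embryonic fibroblasts, cultured connective tissue cells taken from embryos. They were the survival genes Bcl2, Bcl2l1, Bcl2l2 and Mcl1, the effector genes Bak1 and Bok, and the BH3-only genes Bcl2l11, Bad, Bid and Bmf. Members were the probe sets that the platform annotation assigns to 1 of these genes alone, 35 of the 34945 probe sets with 1 gene, and they gave 10 of the 18193 genes tested. Family members known mainly as targets of the tumour suppressor p53 were left out of the set.

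RNA was measured on 8 Affymetrix mouse arrays of C57BL/6 fibroblasts at passage 13. Wild-type control cells and cells null for both Stat5a and Stat5b were starved for 5 hours and then kept for a further 2 hours, either with growth hormone (GH, 1 ug/ml) or with none added. This gave 4 groups of 2 arrays, which the labels call biological replicates. The labels do not say if embryos or cultures were separate, so p-values reflect only how far these arrays spread, which may be technical. The labels used here do not say how the Stat5a/b deletion was made or whether each genotype was 1 cell line or several.

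The BH3-only proteins carry the death signal: they bind the survival proteins, which otherwise hold the pore-forming proteins BAX and BAK in check, and some bind the pore formers directly. In fibroblasts the balance among these proteins sets how a cell takes the loss of growth factors, DNA damage or inflammatory cytokines. STAT5 is activated by the GH receptor through the kinase JAK2, and Bcl2l1 is a well-known STAT5 target in blood cells. The comparisons ask how the family's transcripts differ between the genotypes and how they change under GH in each of them.

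Values are log2 expression levels, in which a difference of 1 is a 2-fold change. Genes were called at an adjusted p below 0.05 in limma, with Benjamini-Hochberg adjustment over all 18193 genes, and every adjusted p here is limma's. Errors of differences are standard errors (SE) with 2 arrays per group. A group mean was called dim when under 6.097, the lower quartile of the values of all genes. The probe sets that stood for the 10 genes were above this level in all 4 groups.

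Markers of other cells and the labels were checked first. Replicate arrays correlated between 0.997 and 0.998 across genes. The STAT5 target Cish rose under GH in control cells (1.95 ± 0.11, adjusted p = 2.26e-07) and not detectably in null cells (0.06 ± 0.11, adjusted p = 0.745). Stat5b was lower in null cells without GH (-0.69 ± 0.09, adjusted p = 3.33e-05), and Stat5a was dim in null cells. The fibroblast markers had array means from 12.60 to 13.50 over 12 genes, but the list was uneven. Lum, Dcn, Pdgfra and Col3a1 were higher in null cells without GH. Lum stood at 7.76 in control and 12.08 in null cells, Pdgfra at 9.16 and 12.96, and Dcn at 10.96 and 14.53. Col3a1 differed less (13.94 and 14.255). The Lum level in control cells lay under 8.04, the median of all gene values. Fn1 (-0.97 ± 0.09) and Fap (-0.85 ± 0.10) were lower, and 6 of the 12 were not called. The 10 listed markers of macrophages and leukocytes were each lower in null cells, in either GH state. Their mean over the list ran from 10.02 to 10.36 on control arrays and from 6.90 to 7.06 on null arrays. The leukocyte gene Ptprc was dim in null cells and stood at 9.20 in control cells without GH. Every genotype comparison below was made on the same arrays that differed in these markers. The part of the markers in the genotype differences was not tested. In RNA from a whole culture, fewer cells of a type and less RNA per cell cannot be told apart. Of the 5 endothelial markers, Pecam1, Tek and Tie1 were dim in every group and Kdr stood between 8.20 and 8.42. Of the 5 epithelial markers, Cdh1 was dim in every group and Epcam stood between 9.13 and 9.24 in all of them. Krt19, another epithelial marker, stood at 8.60 in control and 6.24 in null cells without GH, and with GH at 8.42 in control cells and dim in null cells. Its part in the genotype differences was not tested either.

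Without GH, null cells had less transcript of 3 of the 4 survival genes and of the effector gene Bok, more Bcl2l11 and Bmf, and less Bid. In all, 7 of the 10 genes were called, 2 higher and 5 lower in null cells, against a background in which 47.5% of all genes were called (24.8% higher and 22.7% lower). The median log2 difference of the 10 was -0.37, and that of all genes was 0.03. With GH, 4 of the 10 were called, all lower in null cells (Bcl2, Bcl2l1, Bcl2l2 and Bok) and none higher, against 45.3% of all genes (22.2% higher and 23.1% lower), and the medians were -0.06 and -0.02. With backgrounds of this size the counts are not a result about the family, and the values of each gene follow. The genotype comparisons in the 2 GH states share no array, but each shares arrays with the GH comparisons described further on.

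**Figure D1:**
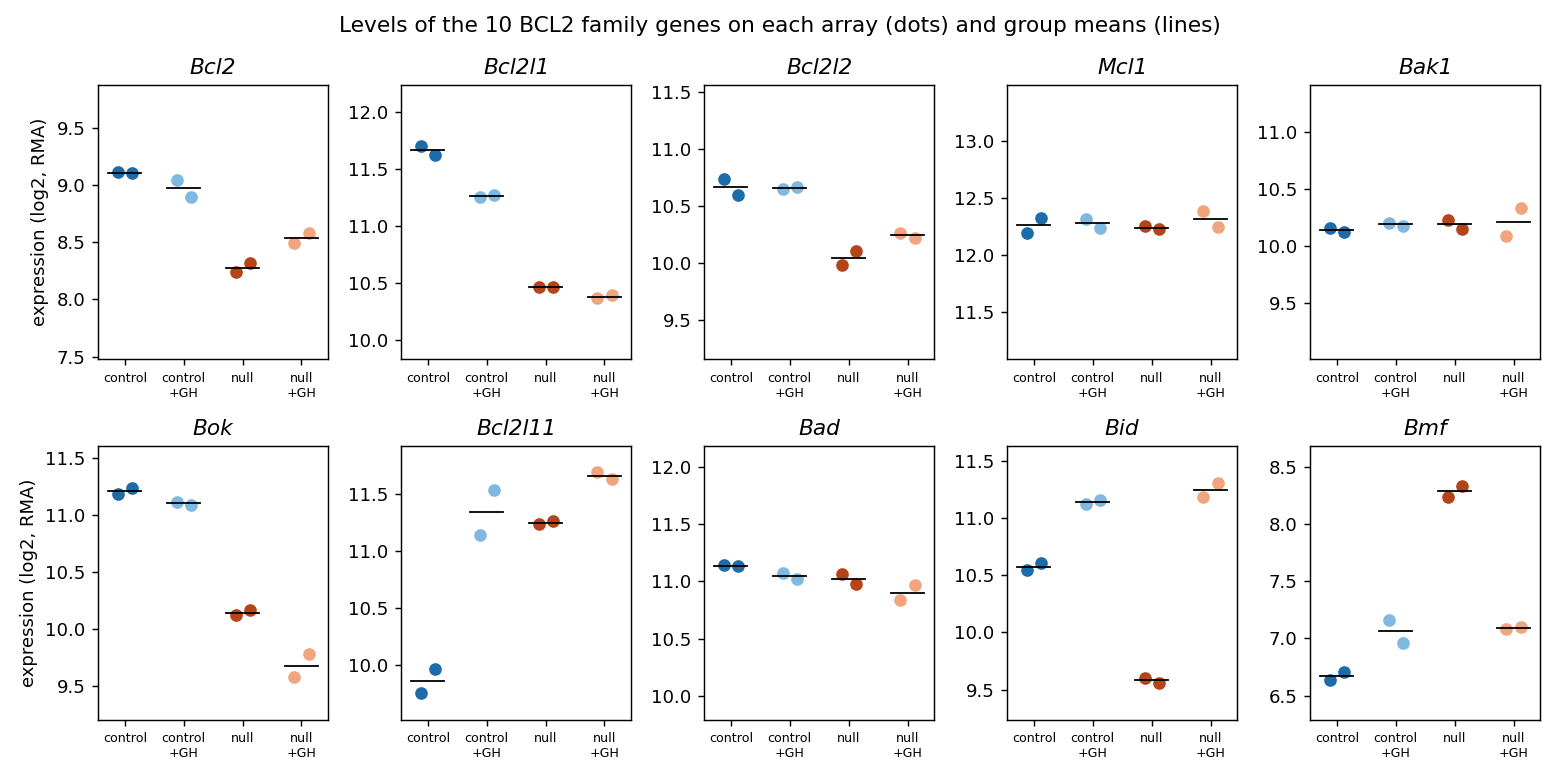
Each panel plots 1 gene, with the log2 level on the vertical axis and the 4 groups on the horizontal axis, dots for the 2 arrays of a group and a line for their mean. Every panel spans the same number of log2 units around its own centre. Bcl2, Bcl2l1, Bcl2l2 and Bok sit lower on the null arrays, Bcl2l11 is lowest in control cells without GH, Bmf is highest in null cells without GH, and Mcl1, Bak1 and Bad stay close to level.

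Among the survival genes, Bcl2l1 had the widest genotype difference. It encodes BCL-XL, which binds pore-forming and BH3-only proteins at the mitochondrion. Its level was 11.70 and 11.62 on the control arrays without GH, 11.25 and 11.27 with GH, 10.47 and 10.46 on the null arrays without GH, and 10.37 and 10.40 with GH. No array of one group overlapped another group. Without GH, null cells had 2.29-fold less Bcl2l1 (-1.197 ± 0.08, adjusted p = 1.67e-07) and with GH 1.84-fold less (-0.88 ± 0.08, adjusted p = 2.75e-06). Of its 4 probe sets, the 3 above the dim level were lower in null cells in either GH state when each probe set was tested alone. The remaining set was dim and was not called, at 0.18 without GH and 0.03 with GH.

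Bcl2 encodes the founding survival protein of the family. Its level was 9.12 and 9.10 in control cells without GH, 9.05 and 8.90 with GH, 8.24 and 8.32 in null cells without GH, and 8.49 and 8.58 with GH. The control arrays all lay above the null arrays. Bcl2 was 1.78-fold lower in null cells without GH (-0.83 ± 0.09, adjusted p = 8.19e-06) and 1.35-fold lower with GH (-0.43 ± 0.09, adjusted p = 0.00164). Its 5 probe sets were uneven: 3 were called lower without GH and 2 with GH, and 2 sets were dim. With the mean of its probe sets in place of the brightest, the difference with GH was -0.19 (adjusted p = 0.0949) and no longer called, where the adjusted p ranged from 0.000728 to 1 over all alternatives.

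Bcl2l2, which encodes the survival protein BCL-W, stood at 10.74 and 10.60 in control cells without GH and 9.98 and 10.11 in null cells. With GH it stood at 10.65 and 10.66 in control and 10.26 and 10.22 in null cells. The genotypes did not overlap in either state. It was 1.54-fold lower in null cells without GH (-0.62 ± 0.09, adjusted p = 9.67e-05) and 1.33-fold lower with GH (-0.41 ± 0.09, adjusted p = 0.00227). Tested alone, 3 of its 4 probe sets were lower without GH and all 4 with GH, the widest of them at -0.85.

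Mcl1 encodes a short-lived survival protein that is largely controlled by its turnover. The brightest of its 6 probe sets showed no genotype difference, with array levels from 12.20 to 12.38 that overlapped among all 4 groups. The difference was -0.02 ± 0.09 without GH, with a 95% confidence interval of -0.22 to 0.18, and 0.04 ± 0.09 with GH, with an interval of -0.16 to 0.24. The probe sets of Mcl1 disagreed with each other. In null cells without GH, 1 set was higher (0.41) and another lower (-0.42), each called when tested alone, and the same pair was called with GH at 0.38 and -0.27. Neither set was dim. Of the other 3 sets not used for the gene, all lay between 0.17 and 0.26 in either GH state and none was called. Which part of the transcript each set reads was not analysed here, so the direction for Mcl1 depends on the probe set taken.

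The effector genes parted from each other. Bok encodes an effector that can permeabilise mitochondria without BAX and BAK. It was 11.18 and 11.23 in control cells without GH and 10.12 and 10.17 in null cells, and with GH 11.11 and 11.09 against 9.58 and 9.78. It was 2.09-fold lower in null cells without GH (-1.06 ± 0.09, adjusted p = 1.16e-06) and 2.68-fold lower with GH (-1.42 ± 0.09, adjusted p = 8.93e-08). Under the alternatives its differences stayed between -1.09 and -1.04 without GH and between -1.52 and -1.32 with GH. A single probe set measures it, so no second set could be compared. Bak1, which encodes the pore former BAK, had array levels from 10.09 to 10.34 that overlapped between the genotypes in either GH state. Its differences were 0.05 ± 0.10 without GH (95% confidence interval -0.16 to 0.26) and 0.02 ± 0.10 with GH (-0.19 to 0.24). The other probe set of Bak1, which was not dim, lay above both intervals. Tested alone, it was at 0.39 without GH (adjusted p = 0.0892) and 0.43 with GH (adjusted p = 0.0657), not called in either state.

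**Figure D2:**
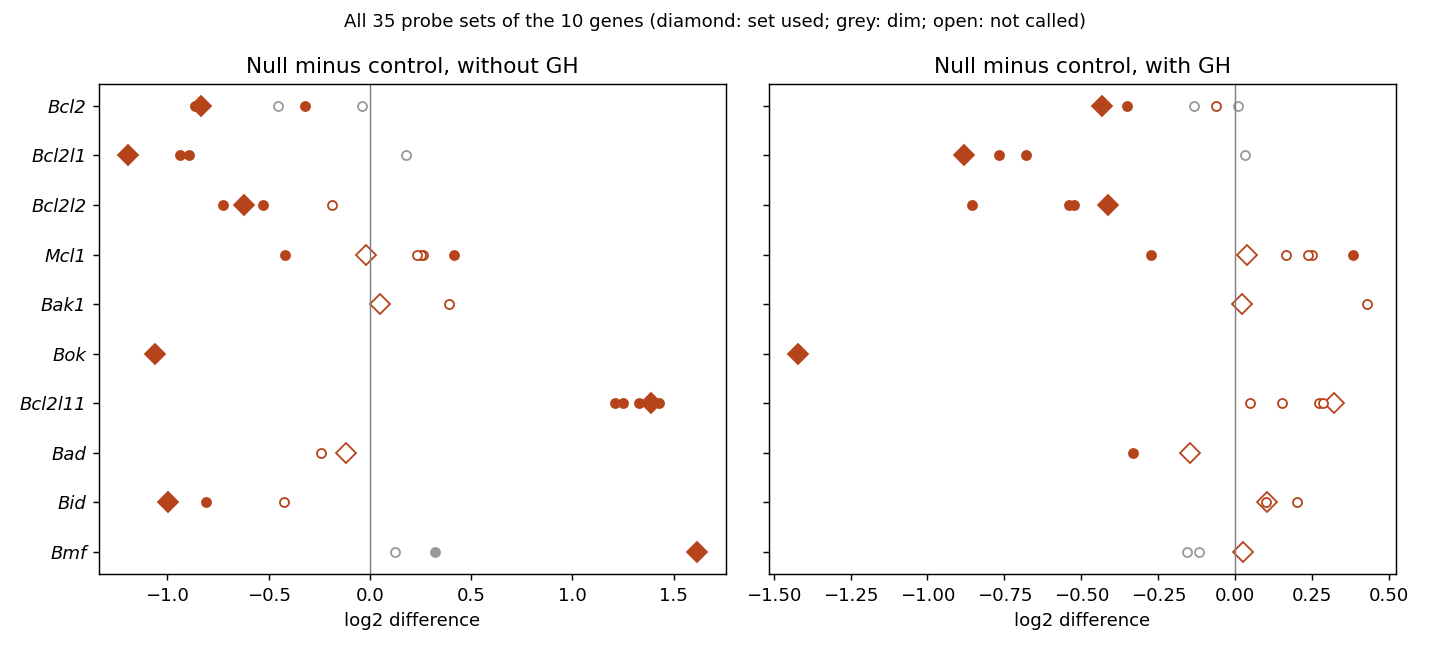
The log2 difference of null minus control cells is plotted on the horizontal axis for each of the 35 probe sets, with genes on the vertical axis and the 2 GH states in separate panels. Diamonds are the sets used for the genes, grey marks dim sets and open symbols were not called. The 5 sets of Bcl2l11 lie together between 1.21 and 1.43 without GH, and those of Mcl1 spread from -0.42 to 0.41.

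Among the 4 BH3-only genes, 3 responded to GH differently in the 2 genotypes. The difference between the responses was called for Bcl2l11, Bid and Bmf, higher in null cells for Bid and lower for the other two, against 5.16% of all genes (2.83% higher and 2.33% lower). None of the survival and effector genes passed this test. Because a GH comparison and a genotype comparison share arrays, a level that stands apart in 1 group enters several of them at once. The groups that stood apart were control cells without GH for Bcl2l11 and null cells without GH for Bid and Bmf.

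The promoters of these 3 genes are shown because they were the BH3-only genes whose transcripts moved under GH in at least 1 genotype. Bcl2l1 and Bok were also called under GH, and their promoters are not shown. Each window runs 5′ to 3′, from 250 bases before to 50 bases after the start farthest upstream in the RefSeq table of the mouse assembly GRCm38.p6. Capitals mark 2 words found on either strand: GTAAACA, a core that FOXO and other forkhead factors bind, and GGGCGG, the GC box that SP1 binds.
Bcl2l11 promoter, GRCm38.p6 chr2:128125788-128126087, plus strand: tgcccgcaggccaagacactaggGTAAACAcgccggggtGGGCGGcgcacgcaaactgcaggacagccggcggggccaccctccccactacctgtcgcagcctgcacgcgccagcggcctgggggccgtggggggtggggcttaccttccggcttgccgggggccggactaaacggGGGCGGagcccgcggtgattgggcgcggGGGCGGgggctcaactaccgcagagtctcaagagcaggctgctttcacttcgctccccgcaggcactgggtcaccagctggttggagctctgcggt
Bid promoter, GRCm38.p6 chr6:120916775-120917074, minus strand: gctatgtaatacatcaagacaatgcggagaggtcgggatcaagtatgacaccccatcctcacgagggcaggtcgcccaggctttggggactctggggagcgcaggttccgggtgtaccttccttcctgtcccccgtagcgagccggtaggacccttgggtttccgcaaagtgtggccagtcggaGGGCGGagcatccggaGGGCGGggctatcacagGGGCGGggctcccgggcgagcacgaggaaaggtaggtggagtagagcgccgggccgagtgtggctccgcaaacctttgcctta
Bmf promoter, GRCm38.p6 chr2:118549637-118549936, minus strand: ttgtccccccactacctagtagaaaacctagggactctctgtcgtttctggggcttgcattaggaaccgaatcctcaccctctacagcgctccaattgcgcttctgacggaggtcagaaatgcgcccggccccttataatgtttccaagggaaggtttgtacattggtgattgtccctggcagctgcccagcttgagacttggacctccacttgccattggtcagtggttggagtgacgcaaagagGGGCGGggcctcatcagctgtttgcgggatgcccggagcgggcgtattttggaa
GTAAACA occurs once in the Bcl2l11 window, starting 227 bases before the gene start, and in none of the other windows among the 16 of the 10 genes. It occurs in 3.65% of all 32851 windows of the table. GGGCGG occurs in 9 of the 16 windows and in 35.7% of all windows, with 3 copies each in the Bcl2l11 and Bid windows and 1 in the Bmf window shown. The STAT word TTCNNNGAA occurs in none of the 16 and in 8.3% of all windows. The same word with 1 more N in its spacer, the spacing known for STAT6, occurs in 2 of the 16, 1 each of Bcl2l1 and Bok, and in 6.95% of all windows. These matches describe the letters only, and they say nothing of binding, or of sequence outside the windows.

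Bcl2l11 encodes BIM, a BH3-only protein that binds every survival protein of the family and is known to rise when growth factors are withdrawn. Its level was 9.75 and 9.96 in control cells without GH and 11.14 and 11.53 with GH. In null cells it was 11.24 and 11.26 without GH and 11.69 and 11.63 with GH. Control cells without GH thus lay below all other arrays, and the null arrays without GH lay within the range of the control arrays with GH. GH raised Bcl2l11 2.79-fold in control cells (1.48 ± 0.12, adjusted p = 1.22e-05). In null cells the change was 0.41 ± 0.12 and just missed the threshold (adjusted p = 0.0522). The response was smaller in null cells by a log2 difference of -1.07 ± 0.18 (adjusted p = 0.00407).

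In the genotype comparison Bcl2l11 was 2.62-fold higher in null cells without GH (1.39 ± 0.12, adjusted p = 1.39e-06), and with GH the difference was 0.32 ± 0.12 (adjusted p = 0.0531). The probe sets of Bcl2l11 moved together. All 5 were called higher in null cells without GH (1.21 to 1.43), higher under GH in control cells (1.11 to 1.61), and different in response (-1.28 to -0.93) when tested alone. In null cells 1 of the 5 was called under GH. The values near the threshold depended on the setting. The genotype difference with GH was called in 7 of 18 alternatives (adjusted p from 0.0048 to 1), and it was 0.52 without control replicate 3 with GH and 0.12 without control replicate 2 with GH. The change in null cells was called in 8 of 18 alternatives (adjusted p from 0.00985 to 1).

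Bid encodes a BH3-only protein that caspase-8 cuts, which links death receptors to the mitochondrion. Without GH it was 10.55 and 10.61 in control cells and 9.60 and 9.56 in null cells. With GH it was 11.13 and 11.16 in control cells and 11.19 and 11.31 in null cells. The null arrays were therefore the lowest without GH and the highest with it. GH raised Bid 1.48-fold in control cells (0.57 ± 0.09, adjusted p = 0.00274) and 3.18-fold in null cells (1.67 ± 0.09, adjusted p = 1.44e-07). The response was larger in null cells by 1.10 ± 0.12 (adjusted p = 0.000269).

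Bid was 1.99-fold lower in null cells without GH (-0.996 ± 0.09, adjusted p = 1.18e-06). With GH the difference was 0.10 ± 0.09 (adjusted p = 0.38), with a 95% confidence interval of -0.09 to 0.29. Of its 3 probe sets, 2 were called in each of the comparisons in which Bid was called, and the third, the lowest in signal, was not called in any of the 5.

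Bmf encodes a BH3-only protein that is tethered to the cytoskeleton and released by detachment and other stress. It was 6.64 and 6.71 in control cells without GH, 7.17 and 6.96 with GH, 8.24 and 8.34 in null cells without GH, and 7.08 and 7.10 with GH. Null cells without GH lay above all other arrays, and the 2 groups with GH overlapped. GH lowered Bmf 2.29-fold in null cells (-1.198 ± 0.10, adjusted p = 6.72e-06). In control cells the difference was 0.39 ± 0.10 and was not called (adjusted p = 0.0561, called in 2 of 18 alternatives, adjusted p from 0.0347 to 1).

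The 2 responses differed by -1.59 ± 0.13 (adjusted p = 2.94e-05). Bmf was 3.07-fold higher in null cells without GH (1.62 ± 0.10, adjusted p = 3.49e-08), and with GH the difference was 0.03 ± 0.10 (adjusted p = 0.863). These values come from a single probe set, of a kind whose suffix marks matches to several transcripts. The other 2 sets of Bmf were dim, and 1 of them was called higher in null cells without GH (0.32). Without sets of that kind, an alternative chosen after seeing the data, Bmf was read by a dim set, and its difference was 0.12 (adjusted p = 0.383) between genotypes without GH and -0.24 (adjusted p = 0.182) under GH in null cells. The difference of the responses was then -0.28 (adjusted p = 0.378), so all 3 calls of Bmf were lost. The adjusted p ranged over all alternatives from 2.83e-09 to 0.383, from 7.19e-08 to 0.182 and from 7.15e-06 to 0.378.

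Bad, which encodes a BH3-only protein that survival kinases switch off by phosphorylation, was not called in any comparison. Its array levels ran from 10.84 to 11.14. Its differences were -0.12 ± 0.09 between the genotypes without GH (95% confidence interval -0.31 to 0.08) and -0.15 ± 0.09 with GH (-0.34 to 0.05). The second probe set of Bad was called lower in null cells with GH when tested alone (-0.33). With the mean of both sets the gene was called there too (-0.24, adjusted p = 0.0291), over a range of 0.0291 to 1.

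**Figure D3:**
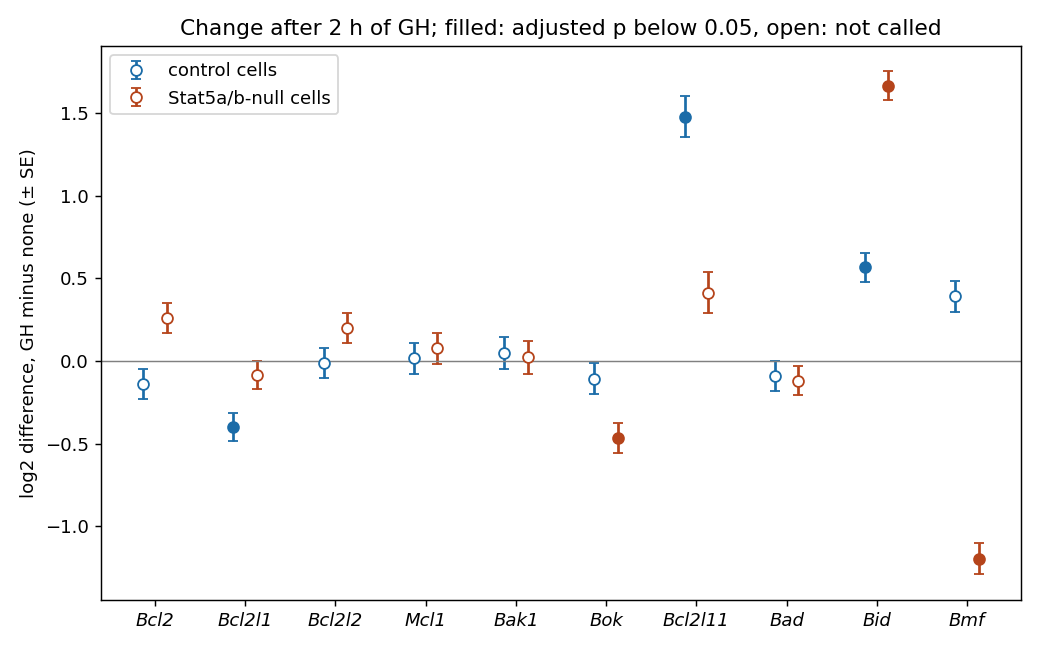
The change in log2 level after 2 hours of GH is plotted for the 10 genes on the vertical axis, blue for control and red for null cells, with bars for the SE and filled symbols for called changes. Bcl2l11 rises in control cells, Bid rises in each genotype and more in null cells, and Bmf falls in null cells, while the survival genes stay between -0.40 and 0.26.

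Counted over the family, GH in control cells gave 3 calls among the 10 genes, 2 higher and 1 lower, where 2.62% of all genes were called (1.72% higher and 0.896% lower). In null cells it gave 3 as well, 1 higher and 2 lower, where 11.7% of all genes were called (5.36% higher and 6.35% lower). The third call in control cells was a fall of Bcl2l1 by 0.40 on the log2 scale (-0.40 ± 0.08, adjusted p = 0.0226). It was 1.32-fold, and 1 of the 4 Bcl2l1 probe sets was called. It was lost without control replicate 2 without GH (-0.36), control replicate 2 with GH (-0.39) or control replicate 3 with GH (-0.41), and with the mean of its probe sets it was -0.24. It held in 12 of 18 alternatives (adjusted p from 0.00438 to 1).

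The third call in null cells was a 1.38-fold fall of Bok (-0.47 ± 0.09, adjusted p = 0.0071). Without null replicate 2 with GH it was -0.37 (adjusted p = 0.0866), over a range of 0.00157 to 1. Bcl2 moved by -0.14 ± 0.09 in control and 0.26 ± 0.09 in null cells, neither called, and 1 of its 5 probe sets was called higher in null cells. Mcl1 moved by 0.02 ± 0.09 and 0.08 ± 0.09, Bcl2l2 by -0.01 ± 0.09 and 0.20 ± 0.09, and none of these was called.

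The genes whose pattern over the 8 arrays was most like the 3 widest-ranging members were found by Pearson correlation among 7009 genes with group means spanning at least 0.5. For Bcl2l11 they were Ppargc1b (0.983), Baiap2 (0.975) and Zc3h12c (0.966), and 4 genes had a correlation above 0.95. For Bid they were Csf1 (0.991), Tgif1 (0.981) and Gfpt2 (0.978), with 27 genes above 0.95. For Bmf they were Parp16 (0.985), Vps37d (0.983) and Hexim2 (0.983), with 21 genes above 0.95. With 4 groups of 2 arrays a high correlation reflects mainly a similar order and spacing of 4 group means, so these are descriptions.

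Other genes of the pathway were taken from 5 fixed lists. Of 14 other BCL2 family genes, 9 had a probe set of their own, and 1 was higher and 3 lower in null cells without GH, a comparison in which 47.5% of all genes were called. The p53 targets were among the lower ones. Bbc3, which encodes the BH3-only protein PUMA, was 5.18-fold lower (-2.37 ± 0.10, adjusted p = 2.26e-09), and Pmaip1, which encodes NOXA, stood at 10.95 in control cells and was dim in null cells. GH raised Bbc3 in null cells (0.49 ± 0.10, adjusted p = 0.00931) and not detectably in control cells (-0.15 ± 0.10, adjusted p = 0.749). Bcl2l13 was higher in null cells (0.34 ± 0.09) and Bcl2l15 was called lower at dim levels. Under GH, Bik in control cells (-0.23 ± 0.10, adjusted p = 0.448) and Bcl2l12 in null cells (-0.29 ± 0.09, adjusted p = 0.0706) did not pass.

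Downstream of the mitochondrion, 13 of 15 listed genes were measured, with 4 higher and 4 lower in null cells without GH and a median of 0.02, beside 47.5% called and a median of 0.03 over all genes. Cycs, which encodes the cytochrome c that leaves the mitochondrion and starts caspase activation, was 2.77-fold lower (-1.47 ± 0.11). Dffa, the inhibitor of the DNA-cutting caspase-activated nuclease, was lower too (-0.76 ± 0.09). The caspase inhibitor genes Xiap (1.02 ± 0.11) and Birc3 (1.09 ± 0.09) were higher. Birc3 and Birc2, whose proteins act in TNF receptor signalling, were the list's genes called higher under GH in either genotype. Birc3 rose 3.56-fold in control cells (1.83 ± 0.09) and 4.47-fold in null cells (2.16 ± 0.09), and Birc2 rose by 0.64 ± 0.10 and 0.83 ± 0.10. Their responses were not called different between the genotypes (0.33 ± 0.13, adjusted p = 0.214, and 0.19 ± 0.14, adjusted p = 0.548).

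The death receptor list, the arm that leads to the cutting of BID, held 7 measured genes of 8, and 6 were lower and 1 higher in null cells without GH (median -0.86). Over all genes 22.7% were lower and 24.8% higher, with a median of 0.03. Fas, a death receptor gene, was like Bid lowest in null cells without GH. It stood at 9.25 and 9.41 in control cells without GH, 9.97 and 9.84 with GH, 7.25 and 7.38 in null cells without GH, and 9.75 and 9.63 with GH. It was 4.03-fold lower in null cells without GH (-2.01 ± 0.10, adjusted p = 7.24e-09) and rose 5.18-fold under GH in null cells (2.37 ± 0.10). In control cells it rose 1.49-fold (0.57 ± 0.10, adjusted p = 0.00662). The null rise was larger by 1.80 ± 0.14 (adjusted p = 1.69e-05). Tnfrsf10b, the TRAIL receptor gene (-1.16 ± 0.09), the adaptor gene Fadd (-0.86 ± 0.10) and Cflar, which encodes a caspase-8 inhibitor (-0.87 ± 0.09), were also lower without GH. Cflar rose under GH in null cells (0.67 ± 0.09) and its change in control cells was not called (0.31 ± 0.09).

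Among 20 regulators of the members, 10 were higher and 1 lower in null cells without GH (median 0.25). Over all genes 47.5% were called, 24.8% higher and 22.7% lower, with a median of 0.03. The forkhead genes Foxo1 (1.35 ± 0.09) and Foxo4 (1.10 ± 0.09), whose family activates Bcl2l11 in several cell types, were higher. Foxo3, the other forkhead gene listed, was not called between the genotypes without GH (0.10 ± 0.12, adjusted p = 0.543). The part of these genes in the Bcl2l11 levels was not tested. The kinase gene Pim3 (1.37 ± 0.10), whose family phosphorylates BAD, was higher. Dynll2, which encodes the dynein light chain that binds BMF, was lower (-0.68 ± 0.09). Under GH, 4 of the 20 rose and 1 fell in control cells, and 7 rose and 1 fell in null cells, where 2.62% and 11.7% of all genes were called. Bcl3, an IkappaB family gene, rose by 2.73 ± 0.11 in control and 2.26 ± 0.11 in null cells. Pim1 rose by 0.96 ± 0.09 in control and 0.55 ± 0.09 in null cells. Foxo1 rose by 0.49 ± 0.09 in control and 0.43 ± 0.09 in null cells, and Foxo3 by 0.56 ± 0.12 and 0.52 ± 0.12. Rela, an NF-kappaB subunit gene, rose in null cells (1.05 ± 0.09), and its change in control cells was not called (0.31 ± 0.09, adjusted p = 0.11).

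Of 14 measured genes for mitochondrial channels and for BNIP and BAG partners of the family, 7 were higher and 5 lower in null cells without GH (median 0.20), against 24.8% higher and 22.7% lower over all genes. The co-chaperone gene Bag2 was lower (-1.17 ± 0.09), while Bnip3, a mitophagy receptor gene (0.80 ± 0.08), Bag5 (0.75 ± 0.09) and Bag6 (0.64 ± 0.10) were higher. Under GH none was called in control cells, where Bag2 (-0.25 ± 0.09) and Bag3 (0.19 ± 0.10) had the lowest p. In null cells 3 fell, with 6.35% of all genes lower, among them Bnip3 (-0.56 ± 0.08) and Bag2 (-0.39 ± 0.09).

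**Figure D4:**
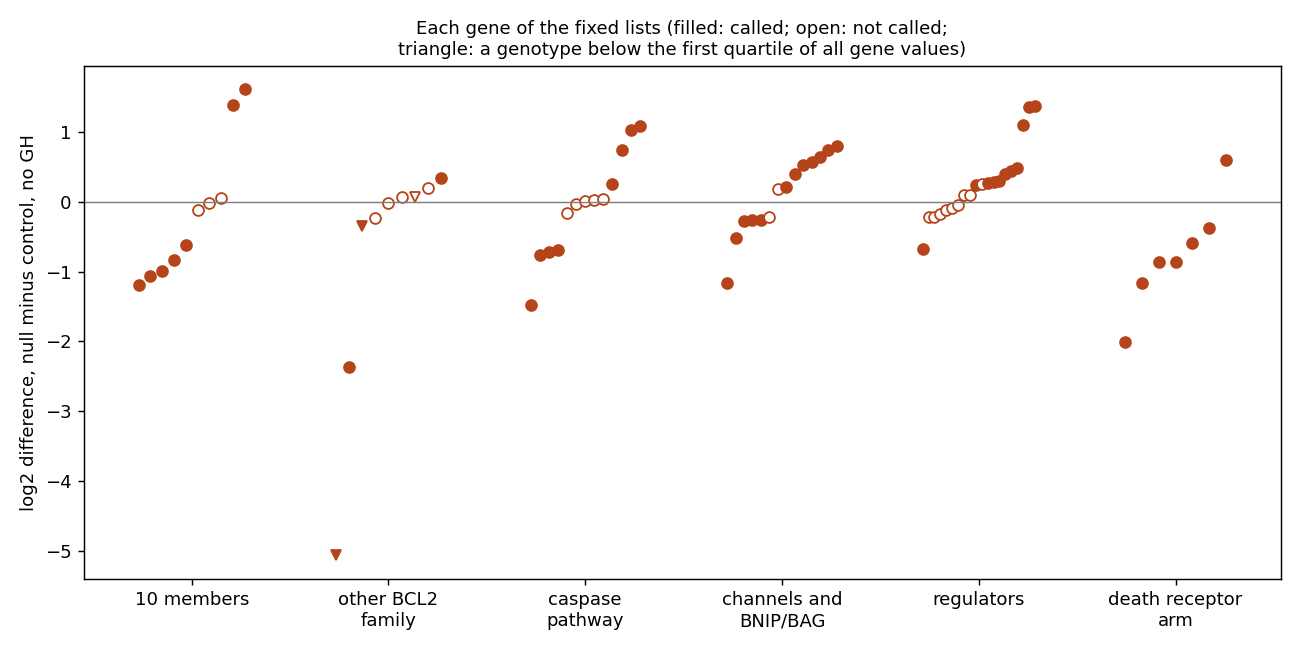
The log2 difference of null minus control cells without GH is plotted on the vertical axis for each measured gene of the 10 members and of the 5 other lists on the horizontal axis. Filled symbols were called, and triangles mark genes that were dim in at least 1 genotype. The death receptor list has 6 of its 7 genes below 0, and the other lists have genes on each side.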

How the data were processed

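The deposited log2 values were made by the authors with Partek 6.10.0511 and robust multi-array averaging (RMA), per the submitters' processing notes. RMA corrects background, equalises the arrays' distributions and summarises each probe set. RMA options not given in the sources used here were not assumed, and no detection call comes with the values. Arrays were grouped and numbered by their titles. On 1 null array with no GH the source field has a 3 where the title has a 2, and the title was used.

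Of 45101 probe sets, 64 controls were left out, and 34945 had 1 gene, 932 several and 9160 none. Symbols were updated through Entrez identifiers. The brightest probe set over all arrays stood for each of the 18193 genes. Named genes outside the 10 members whose set, like that of Bmf, has a suffix marking matches to several transcripts included Bik, Dynll2, Epcam, Foxo1 and Pim3. Their other sets were not compared. limma 3.58.1 in R 4.3.3 fitted 1 mean per group to all 8 arrays, with 4 residual and 7.82 prior degrees of freedom. The script was tested on simulated data. For arrays, the number of replicates limits precision, and the median residual SD was 0.097. The members, lists and tests were chosen with earlier results of these data known, and support nothing on their own. All members were named, and of each other list up to 4 genes with the lowest p between genotypes without GH and up to 2 in each GH comparison. Foxo3 was named besides, to give all listed forkhead genes. The dim level was chosen after the data were seen. Alternatives changed the probe set rule, the normalization, the filter, the variance prior, the arrays in the fit and the fold required. Promoters were searched for 11 short words on both strands, and the matches to each are given. All 10 genes matched, with 16 starts.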

Additional observations from a re-analysis of the deposited data

Results flagged for a closer look

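The difference between the GH responses of null and control cells was called by limma's test of the difference itself for 3 of the 10 BCL2 family genes. It was also called for 10 other genes of the pathway lists, the marker lists and the label checks. Over all 18193 genes 5.16% were called (2.83% higher and 2.33% lower), so some calls would be met in any list of this length. Among the members, the response in null minus control cells was -1.07 for Bcl2l11, 1.10 for Bid and -1.59 for Bmf on the log2 scale. For Bmf it was -0.28 (adjusted p = 0.378) without probe sets that match several transcripts. Control cells without GH stood apart in level for Bcl2l11, and null cells without GH for the other two.

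In the pathway lists the genes were Bbc3 (0.64 ± 0.15, adjusted p = 0.0242), Bnip3 (-0.51 ± 0.12, adjusted p = 0.0287), Pim3 (-0.94 ± 0.14, adjusted p = 0.00242), Rela (0.73 ± 0.12, adjusted p = 0.00487) and Fas (1.80 ± 0.14, adjusted p = 1.69e-05). These were 1 of 9 other BCL2 family genes, 1 of 14 channel and partner genes, 2 of 20 regulators and 1 of 7 death receptor genes measured. None of the 13 genes downstream of the mitochondrion was called. Pim3 fell under GH in null cells (-0.69) and was not called in control cells (0.25). The probe set of Pim3 has a suffix that marks matches to several transcripts, and no other set was compared. Among the label checks, the difference was -1.88 ± 0.15 for Cish and -1.17 ± 0.14 for Socs2, both known STAT5 targets. Among the markers, it was -0.77 ± 0.16 for the fibroblast gene Pdgfra (adjusted p = 0.0146), -1.18 ± 0.14 for the monocyte gene Cd14 (adjusted p = 0.000513) and -0.99 ± 0.23 for the macrophage gene Adgre1 (adjusted p = 0.0303), which was dim in null cells with GH.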

How the results depend on the processing

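The number of the 10 genes called stayed within 1.5 times its main value under every alternative but one. When a difference of at least 1.5-fold was required, the genes called went from 4 to 2 for the genotypes with GH, from 3 to 1 for GH in control cells and from 3 to 1 for the difference of the responses, where Bmf alone held. That test is stricter by construction. Bcl2l11 then had an adjusted p of 0.792 and Bid of 0.104 for the difference, and Bcl2 and Bcl2l2 were lost between the genotypes. No called value changed sign. With the replicate number as a replicate block, 7 genes were called between the genotypes without GH and 5 with GH, 3 and 4 under GH in control and null cells, and 3 for the difference. The additions were Bcl2l11 with GH (0.32, adjusted p = 0.0425) and under GH in null cells (0.41, adjusted p = 0.0471). Over all genes the block gave 45.7% called between the genotypes without GH and 43.7% with GH. It gave 2.35% and 9.42% under GH in control and null cells, and 4.14% for the difference. The 6 correlations of same-numbered arrays' deviations between groups ran from -0.28 to 0.13, so the numbers were not taken to pair the arrays. A fit to the compared arrays alone could not be made for the difference of the responses, which needs all 4 groups. Over all genes, the 1.5-fold requirement took the calls from 8640 to 2605 without GH, from 8247 to 2423 with GH, from 476 to 109 for GH in control cells, from 2130 to 145 for GH in null cells and from 938 to 90 for the difference. With only the compared arrays, 316 were called for GH in control cells. Leaving out 1 array gave 295 to 460 for GH in control cells, 818 to 2409 in null cells and 437 to 872 for the difference. It left a group with a lone array, assumed to vary like the others. With 2 arrays per group and no detection calls, small changes and dim genes cannot be resolved.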
